A study of Mus musculus with 6 samples.

Results

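The TGF-beta genes followed here were 9 genes chosen by name, Tgfb1, Tgfb2, Tgfb3, Tgfbr1, Tgfbr2, Tgfbr3, Ltbp1, Thbs1 and Tgfbi, out of 52550 genes in the deposited table of raw read counts. Each had a row, and all 9 were among the 16402 genes with enough counts for a test. They were chosen with earlier results of these data known. Bone marrow cells of C57BL/6 mice had been grown into macrophages over 7 days in medium with M-CSF, the growth factor that drives macrophage formation, at 25 ng/ml. The macrophages, from MSR1 KO or MSR1 WT mice, then shared a transwell with BMSCs (bone marrow stem cells) for 48 h, so that every library, controls included, came from macrophages exposed to BMSCs. MSR1 is macrophage scavenger receptor 1, which takes up modified lipoproteins, and there were 3 libraries per genotype. The labels give neither the Msr1 allele nor the age or sex of the mice nor the genotype of the BMSCs, and they do not say whether each library came from a separate mouse. The paper calls the libraries biological replicates without naming the unit, and the p-values below measure the spread between these libraries. From its RNA sequencing the paper already lists TGFB2 among the cytokines that decreased in MSR1 KO macrophages.

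TGF-beta is a family of secreted factors that hold back inflammation, drive cells of mesenchymal origin to make matrix, and are stored in bone, where macrophages and other cells release and activate them. Each ligand is made as a latent dimer, which binding proteins of the LTBP family tie to the matrix and which integrins, proteases or thrombospondin can activate. The active ligand binds TGFBR2, which recruits and phosphorylates TGFBR1, and the receptor pair signals through SMAD2 and SMAD3 to target genes such as Tgfbi. TGFBR3, or betaglycan, is a co-receptor without kinase activity that presents ligand, TGF-beta 2 above all, to the signaling pair.

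The libraries held 36143518 to 47417448 counts each. Msr1 itself had 2118, 1825 and 2000 counts in MSR1 KO and 7543, 9163 and 9219 in MSR1 WT, which gave a log2 fold change of -2.02 (SE 0.135, adjusted p = 0.00124, quasi-likelihood test of edgeR), so reads on the targeted gene were fewer but present. All 14 macrophage markers of a fixed list were detected, among them Csf1r, the M-CSF receptor, at 162264 to 213862 counts. Replicates of a genotype differed by more than sampling noise, and none was counted as a duplicate of another.

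The windows upstream of 4 start sites are shown first. Tgfb2 and Ltbp1 were lower in every MSR1 KO library, while Tgfb1 was not. The counts are per gene and do not show which start the RNA came from. Whether these windows have a part in the difference was not tested. The windows are the 250 bases before the first transcribed base, from RefSeq on GRCm38.p6, 5′ to 3′ on the strand of the gene. Capitals mark matches to any of the motifs named next. The Tgfb2 window lies on the minus strand at chr1:186705990-186706239, that of Tgfb1 on the plus strand at chr7:25686752-25687001, and those of the 2 listed starts of Ltbp1 on the plus strand at chr17:75005279-75005528 and chr17:75178531-75178780.
Tgfb2: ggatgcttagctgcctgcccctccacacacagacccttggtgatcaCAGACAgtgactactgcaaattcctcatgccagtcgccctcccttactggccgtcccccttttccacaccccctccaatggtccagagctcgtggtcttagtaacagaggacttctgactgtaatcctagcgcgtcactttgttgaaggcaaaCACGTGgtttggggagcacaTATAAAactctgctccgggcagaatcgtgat
Tgfb1: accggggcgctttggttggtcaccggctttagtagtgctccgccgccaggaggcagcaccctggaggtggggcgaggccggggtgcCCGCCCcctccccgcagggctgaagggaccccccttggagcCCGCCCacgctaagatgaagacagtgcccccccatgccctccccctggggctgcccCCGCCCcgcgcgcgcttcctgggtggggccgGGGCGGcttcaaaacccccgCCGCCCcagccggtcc
Ltbp1, first start: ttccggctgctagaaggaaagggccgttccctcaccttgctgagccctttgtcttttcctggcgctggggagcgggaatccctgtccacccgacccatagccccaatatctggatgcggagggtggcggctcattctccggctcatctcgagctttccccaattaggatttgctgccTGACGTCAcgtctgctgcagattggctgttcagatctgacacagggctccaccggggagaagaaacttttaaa
Ltbp1, second start: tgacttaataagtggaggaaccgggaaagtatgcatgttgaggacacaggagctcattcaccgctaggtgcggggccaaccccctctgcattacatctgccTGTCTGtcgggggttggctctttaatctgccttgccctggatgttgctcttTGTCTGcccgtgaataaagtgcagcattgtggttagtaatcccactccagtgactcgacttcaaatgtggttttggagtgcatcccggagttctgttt
On both strands, the letters searched were TGANTCA (AP-1), TGACGTCA (the cyclic AMP response element, CRE), CAGACA (a Smad box), GGGCGG (a GC box), CACGTG (an E-box) and TATAAA, the letters of the TATA box. The Tgfb2 window held a Smad box 199 to 204 bases upstream of the start, an E-box 46 to 51 bases upstream and a TATA box 26 to 31 bases upstream, and 53.6% of its bases were G or C. The Tgfb1 window had 5 GC boxes and no match to the other motifs, with a GC content of 75.2%. The first Ltbp1 window held a CRE 66 to 73 bases upstream, and the second held 2 Smad boxes, 93 to 98 and 144 to 149 bases upstream. Of 32536 distinct windows of this length, 6.73% held the AP-1 motif, 1.56% the CRE, 17% the Smad box, 33% the GC box, 6.04% the E-box and 12.3% the TATA box, and a match describes the letters only. RefSeq windows were at hand for 6 of the 9 genes, and the set used held none for Tgfb3, Tgfbr3 and Thbs1. The windows of Tgfbr1 and Tgfbi held GC boxes (2 at the first of 2 Tgfbr1 starts, 1 at Tgfbi), the second Tgfbr1 start held 1 Smad box, and that of Tgfbr2 matched none of the motifs.

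Among the ligands, Tgfb2 and Tgfb3 were lower in MSR1 KO macrophages, while the means of Tgfb1 were the same in both genotypes. Tgfb1 is the main form in blood and immune cells, while Tgfb2 and Tgfb3 are best known from mesenchymal and developing tissue. Tgfb2 (chr1:186622792-186705989, minus strand) had 386, 531 and 538 counts in MSR1 KO and 941, 795 and 871 in MSR1 WT. All MSR1 KO libraries thus lay below all MSR1 WT libraries, with MSR1 KO replicate 2 and MSR1 WT replicate 2 closest to the other genotype once depth was taken into account. In CPM, read counts scaled to the TMM-adjusted size of each library, its level was 11.9 ± 1.32 CPM in MSR1 KO and 20.2 ± 3.13 CPM in MSR1 WT (SD, n = 3 each). Tgfb2 was 1.70-fold higher in MSR1 WT (95% interval 1.34 to 2.15), a log2 fold change, MSR1 KO over MSR1 WT, of -0.77 (SE 0.148, adjusted p = 0.0295 from edgeR, adjusted by Benjamini-Hochberg over every tested gene).

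Tgfb3 (chr12:86056745-86079041, minus strand) had 1291, 1475 and 1586 counts in MSR1 KO and 2277, 2177 and 2237 in MSR1 WT libraries. Its groups did not overlap, and the MSR1 KO libraries stood close together, at 35.7 ± 1.48 CPM against 51.8 ± 5.11 CPM (SD, n = 3 each). The log2 fold change of Tgfb3 was -0.54 (SE 0.0945, 95% interval -0.75 to -0.32, adjusted p = 0.0246 from the same edgeR model), and its 1.45-fold difference stayed under the 1.5-fold limit that the study sets for a differentially expressed gene (DEG). Exons on the opposite strand cover 2.14% of the exon bases of Tgfb2 (Gm29491) and 4.82% and 7.6% of those of Tgfb3 (Gm37804 and Gm48008), and without a stated strand setting such reads cannot be told apart. Gm29491 had at most 25 counts and Gm37804 at most 4 in any library.

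Tgfb1 (chr7:25687002-25705077, plus strand) had 11082, 10683 and 15294 counts in MSR1 KO and 13374, 14247 and 11621 in MSR1 WT libraries. Its groups overlapped, at 302 ± 30.9 CPM and 302 ± 21.6 CPM (SD, n = 3 each). The 95% interval of its log2 fold change ran from -0.21 to 0.21, which leaves room for a difference of that size in either direction (adjusted p = 1.00 from edgeR).

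**Figure D1:**
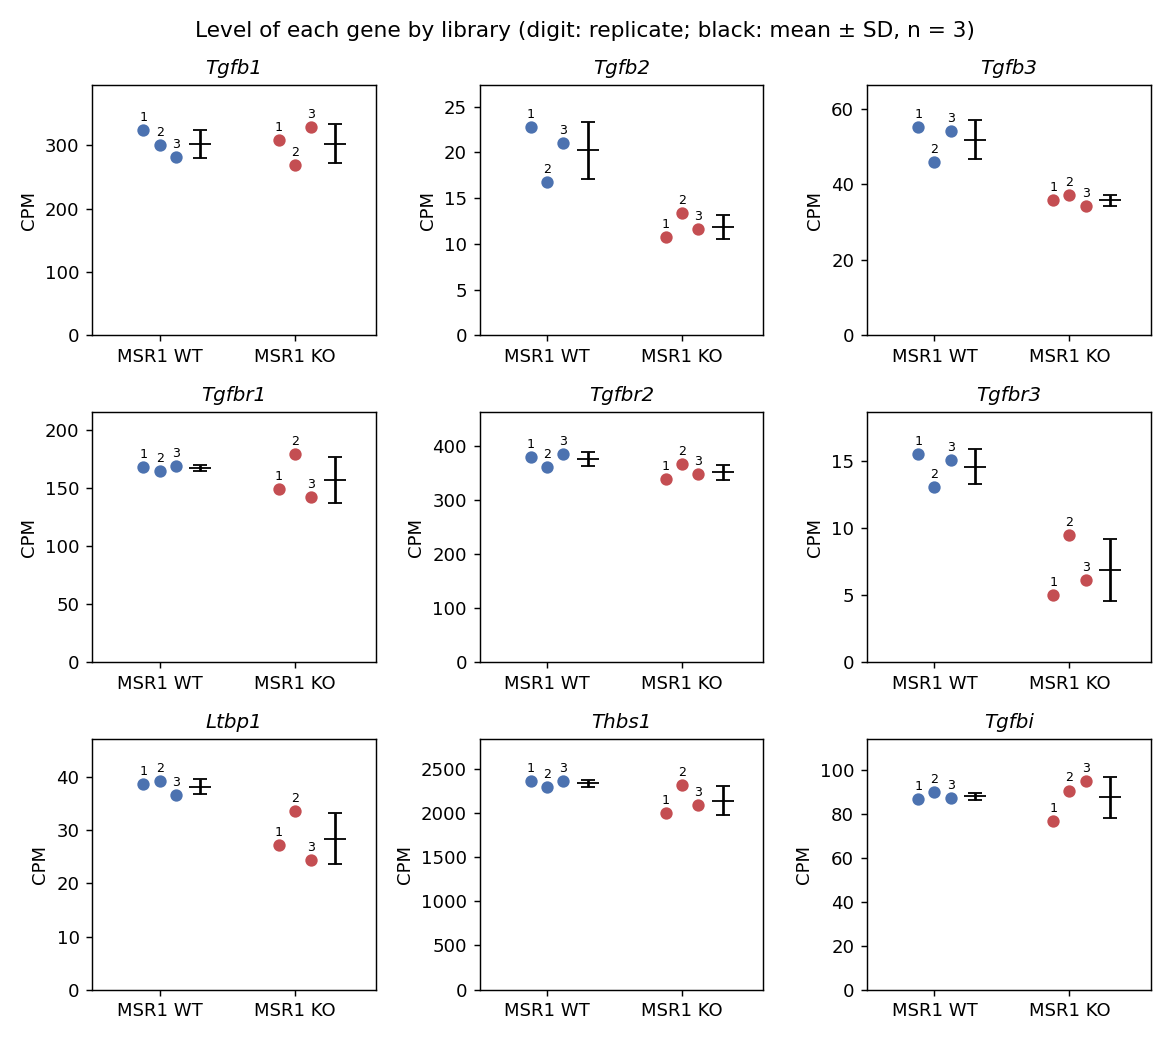
Level of the 9 TGF-beta genes in each library, in CPM on axes that start at 0; each point is a library marked with its replicate number, and the black bar is the mean ± SD of 3 libraries. Tgfb2, Tgfb3, Tgfbr3 and Ltbp1 lie lower in every MSR1 KO library than in every MSR1 WT library, and the genotypes overlap for the other 5 genes.

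Both receptors of the signaling pair overlapped between the genotypes, while the co-receptor was lower in MSR1 KO. Tgfbr3 (chr5:107106570-107289629, minus strand) had 180, 378 and 287 counts in MSR1 KO against 642, 623 and 624 in MSR1 WT. The groups did not overlap, and the MSR1 KO libraries were spread out, with replicate 2 the highest of them. Its level was 6.89 ± 2.33 CPM in MSR1 KO and 14.6 ± 1.30 CPM in MSR1 WT (SD, n = 3 each), a 2.12-fold difference (95% interval 1.48 to 3.04). The log2 fold change of -1.08 (SE 0.227, adjusted p = 0.0370 from edgeR) was the largest in size of the 9 genes. Gm43422, on the same strand, shares 4.54% of the exon bases of Tgfbr3 and had at most 5 counts in any library.

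Tgfbr1 (chr4:47353222-47414931, plus strand), the type I receptor kinase, had 5352, 7143 and 6594 counts in MSR1 KO and 6936, 7800 and 6966 in MSR1 WT libraries. The MSR1 WT libraries were tight at 167 ± 2.34 CPM and fell inside the spread of the MSR1 KO libraries at 157 ± 19.9 CPM (SD, n = 3 each), where replicate 2 was the highest of all 6. The log2 fold change of Tgfbr1 was -0.09 (SE 0.0946, 95% interval -0.31 to 0.13, adjusted p = 0.672 from edgeR). Tgfbr2 (chr9:116084293-116175360, minus strand), the type II receptor that binds the ligand first, had 12209, 14611 and 16185 counts against 15689, 17153 and 15953. It reached 352 ± 13.9 CPM in MSR1 KO and 376 ± 12.9 CPM in MSR1 WT (SD, n = 3 each), with overlapping groups, a log2 fold change of -0.10 (SE 0.0644, 95% interval -0.24 to 0.05, adjusted p = 0.483 from edgeR). For both receptors the interval holds 0.

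Of the genes that hold or release the latent ligand, Ltbp1 was lower in each MSR1 KO library without passing the test, and Thbs1 overlapped between the genotypes. Ltbp1 (chr17:75005568-75392512, plus strand), which ties latent TGF-beta to the matrix, had 977, 1341 and 1136 counts in MSR1 KO and 1597, 1863 and 1515 in MSR1 WT libraries. Its level was 28.4 ± 4.75 CPM in MSR1 KO and 38.2 ± 1.37 CPM in MSR1 WT (SD, n = 3 each), and after scaling the groups did not overlap. The log2 fold change was -0.43 (SE 0.122, 95% interval -0.71 to -0.15, adjusted p = 0.0960 from edgeR). Thbs1 (chr2:118111876-118127133, plus strand) encodes thrombospondin 1, a matrix protein that can activate latent TGF-beta. It had 71776, 92306 and 97331 counts in MSR1 KO and 97373, 108745 and 97509 in MSR1 WT libraries. In CPM the groups overlapped, at 2137 ± 164 in MSR1 KO and 2338 ± 39.9 in MSR1 WT (SD, n = 3 each), with MSR1 KO replicates 1 and 3 lower than the rest and replicate 2 within the MSR1 WT range. Its log2 fold change was -0.13 (SE 0.0699, 95% interval -0.29 to 0.03, adjusted p = 0.372 from edgeR). Gm29233, on the opposite strand, covers 3.42% of the exon bases of Thbs1 and had 433 to 704 counts.

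Tgfbi (chr13:56609523-56639562, plus strand), a secreted matrix protein named for its induction by TGF-beta, stood for the targets among the 9 genes. It had 2759, 3605 and 4410 counts in MSR1 KO and 3578, 4256 and 3598 in MSR1 WT libraries, or 87.4 ± 9.43 CPM and 87.9 ± 1.60 CPM (SD, n = 3 each). The MSR1 WT libraries lay inside the range of the MSR1 KO libraries, of which replicate 1 was the lowest and replicate 3 the highest of all 6. The log2 fold change of Tgfbi was -0.01 (SE 0.0911, 95% interval -0.22 to 0.20, adjusted p = 0.978 from edgeR).

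Counted together, 3 of the 9 genes (33.3%) fell in MSR1 KO at an adjusted p under 0.05 and 0 rose, beside 2.66% of all tested genes lower and 2.25% higher (edgeR, 16402 genes). The 9 genes were chosen with earlier results of these data known, so such shares are not a test of an independently chosen set. At an unadjusted p under 0.05, 4 were lower and 0 higher (edgeR), beside 10.2% of all tested genes lower and 8.65% higher. DESeq2 called 4 of the 9 lower, Ltbp1 being the addition (adjusted p = 0.0341 from DESeq2), and 0 higher, beside 5.18% of all tested genes lower and 4.43% higher. The study defines a DEG by a fold change above 1.5 and a p under 0.05, read here as an unadjusted p. By this definition 2 of the 9 (22.2%), Tgfb2 and Tgfbr3, were lower and 0 higher, beside 5.05% of tested genes lower and 3.59% higher. All MSR1 KO libraries lay below all MSR1 WT libraries for 4 of the 9 genes (44.4%) and for 13.4% of tested genes, and they lay above them for 0 of the 9 genes and for 12.1% of tested genes. The median log2 fold change of the 9 genes was -0.13, and that of all tested genes was -0.00 to 2 decimals. With 1 library fewer the number of called genes dropped in most cases, to 0 of the 9 without MSR1 KO replicate 1, MSR1 KO replicate 3, MSR1 WT replicate 1 or MSR1 WT replicate 3 (edgeR). Lower calls over all genes changed as well, from 436 to 83, 151, 53 and 372 in these omissions in turn. Without MSR1 KO replicate 2 there were 3 called genes of the 9 (Tgfb2, Tgfbr3 and Ltbp1) and 257 lower calls over all genes, and without MSR1 WT replicate 2 there were 2 and 141. Over the 6 omissions the log2 fold change ranged from -0.89 to -0.67 for Tgfb2, from -0.62 to -0.49 for Tgfb3, from -1.38 to -0.89 for Tgfbr3 and from -0.57 to -0.32 for Ltbp1, so that the sign held for these 4 genes in each. Under the DEG definition, by contrast, 2 or 3 of the 9 genes were lower and 0 higher in each omission.

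**Figure D2:**
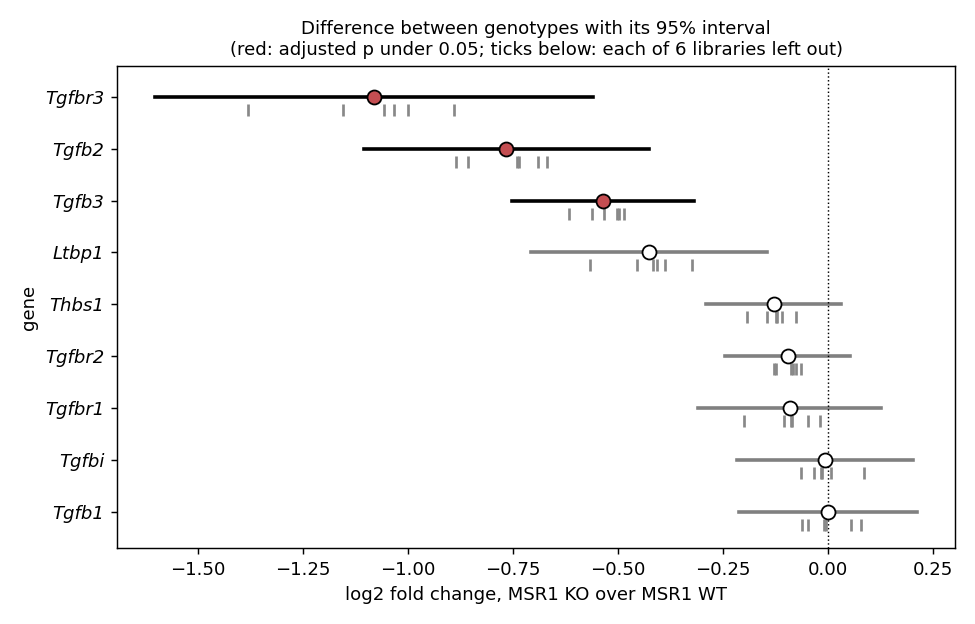
Log2 fold change of the 9 TGF-beta genes, MSR1 KO over MSR1 WT, with its 95% interval from edgeR; filled red points had an adjusted p under 0.05, and grey ticks below each line are the estimates with each of the 6 libraries left out in turn. Tgfbr3 (-1.08), Tgfb2 (-0.77) and Tgfb3 (-0.54) are the red points, and for Tgfb1 and Tgfbi the ticks fall on both sides of 0.

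Levels of different genes were compared as RPKM, the CPM of a gene per kilobase of its exons (all annotated exons merged). In MSR1 WT macrophages Thbs1 was the most abundant of the 9 genes, at 385 ± 6.57 RPKM, followed by Tgfb1 at 59.9 ± 4.28, Tgfbr2 at 45.9 ± 1.58, Tgfbr1 at 25.6 ± 0.357, Tgfbi at 23.3 ± 0.425 and Tgfb3 at 15.3 ± 1.51 RPKM (SD, n = 3 each). Ltbp1 at 3.58 ± 0.128 and Tgfb2 at 3.49 ± 0.540 RPKM came next, and Tgfbr3 was the lowest at 2.23 ± 0.198 RPKM (SD, n = 3 each). Ltbp1 and Tgfb2 were the only neighbours in this order whose MSR1 WT libraries overlapped. The order of the means was the same in MSR1 KO, where the libraries of Tgfbr1 (24.0 ± 3.05 RPKM) and Tgfbi (23.2 ± 2.50 RPKM) overlapped as well as those of Ltbp1 (2.66 ± 0.444 RPKM) and Tgfb2 (2.05 ± 0.229 RPKM; SD, n = 3 each). Tgfbr3 was at 1.05 ± 0.356 RPKM in MSR1 KO (SD, n = 3). The 3 genes called lower were thus among the less abundant of the set. With the longest annotated transcript as the length, Tgfb1 moved to 117 RPKM and Ltbp1 to 5.73 RPKM in MSR1 WT, and Tgfbi (29.3 RPKM) came to lie just above Tgfbr1 (29.0 RPKM).

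**Figure D3:**
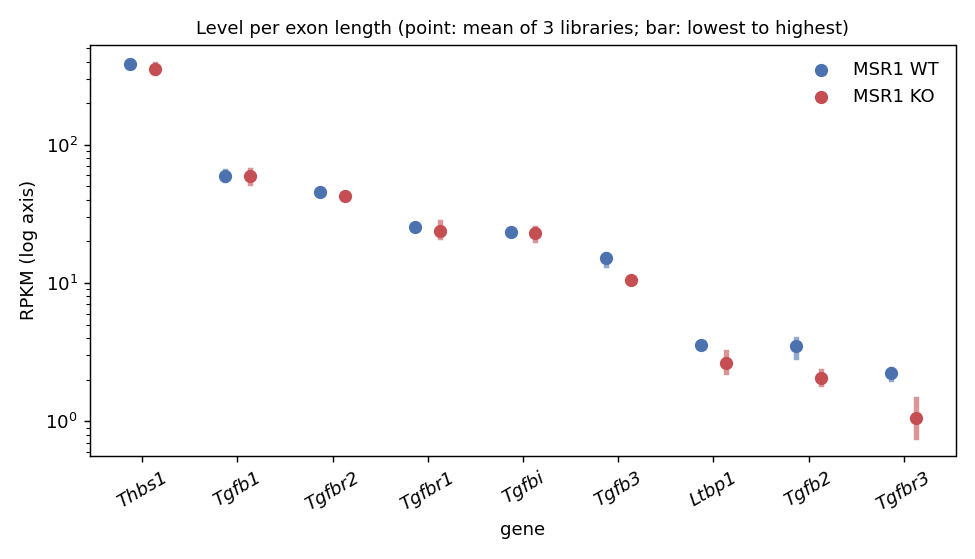
RPKM of the 9 TGF-beta genes on a log axis; points are means of 3 libraries and bars run from the lowest to the highest library. Thbs1, at 385 RPKM in MSR1 WT and 352 RPKM in MSR1 KO, stands above the rest, and Tgfb2, Ltbp1 and Tgfbr3 form the low end in both genotypes.

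The ligand transcripts were mainly Tgfb1 in both genotypes, and more so in MSR1 KO. Of the summed RPKM of the 3 ligands, Tgfb1 made up 83.1%, 80.1% and 84.4% in MSR1 KO and 76.1%, 78.4% and 74.0% in MSR1 WT. The ranges did not overlap, at 82.5 ± 2.21% and 76.1 ± 2.20% (SD, n = 3 each). Tgfb3 held 14.7 ± 1.73% in MSR1 KO and 19.5 ± 1.69% in MSR1 WT, and Tgfb2 2.86 ± 0.528% and 4.43 ± 0.547% (SD, n = 3 each). The level of Tgfb1 itself was 59.9 ± 6.13 RPKM in MSR1 KO and 59.9 ± 4.28 RPKM in MSR1 WT (SD, n = 3 each). No share was tested, and the shares rest on the exon lengths used.

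For each of the 3 called genes, the 3 tested genes nearest in profile were found by the mean absolute difference of log2 CPM, each gene centred on its own mean over the 6 libraries. Nearest to Tgfb2 were Afap1, which binds actin filaments (0.038), Bgn, the matrix proteoglycan biglycan (0.047), and the tetraspanin Tspan6 (0.054). Nearest to Tgfb3 were the actin-binding calponin Cnn2 (0.028), the collagen receptor kinase Ddr2 (0.038) and Pdlim5 (0.040), a protein of the actin cytoskeleton. Bgn had 8577, 11816 and 11662 counts in MSR1 KO and 19928, 19087 and 18490 in MSR1 WT libraries, and Ddr2 had 894, 1095 and 1093 against 1612, 1591 and 1541. For Tgfbr3, the profile with a higher MSR1 KO replicate 2 was shared most closely by Gnai1 (0.050), an inhibitory G protein subunit, Nkd2 (0.078) and Pakap (0.082). Likeness over 6 libraries is a description of these libraries.

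The other genes of the pathway were taken from a list of 116 genes in 7 classes, of which 107 were tested and Itgb6 and Mstn had 0 counts in every library. This list too was chosen with earlier results of these data known. By edgeR's adjusted p, 14 of the 107 fell and 1 rose in MSR1 KO, together 14% beside 4.91% of all tested genes. Under the study's DEG definition 16 were lower and 2 higher, together 16.8% beside 8.64%, and the median log2 fold change of the 107 was -0.24. With the class of mesenchymal target genes set aside, 8 of 83 (9.64%) were lower and 0 higher by adjusted p (edgeR), and the median was -0.08. Over all tested genes, 2.66% were lower and 2.25% higher by that rule. The 14 lower calls became 2 without MSR1 KO replicate 1 or MSR1 WT replicate 1, 6 without MSR1 KO replicate 3 and 9 without MSR1 WT replicate 2, omissions in which lower calls over all genes dropped too. DESeq2 made 26, beside 850 over all genes.

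Among genes of latency and activation, 4 of 16 tested (25%) fell and 0 rose by edgeR's adjusted p, beside 2.66% of all tested genes lower and 2.25% higher. Ltbp3, a relative of Ltbp1 that also binds latent TGF-beta, went from 94.7 ± 8.15 CPM in MSR1 WT to 58.1 ± 3.06 CPM in MSR1 KO (SD, n = 3 each). It fell by 0.70 on the log2 scale (SE 0.0883, adjusted p = 0.0103 from edgeR), with 1992, 2283 and 2856 counts in MSR1 KO against 3970, 4834 and 3546 in MSR1 WT libraries. Lrrc32, which holds latent TGF-beta on the cell surface as GARP, fell from 62.4 ± 7.18 to 37.4 ± 0.402 CPM (SD, n = 3 each; log2 fold change -0.74, adjusted p = 0.0126 from edgeR). Ltbp2 (-0.84) and Fbn1, the microfibril protein fibrillin 1 to which the LTBPs attach (-0.84), fell as well, with adjusted p-values of 0.0219 and 0.0211 from edgeR. Nrros, outside the rule for naming genes, did not fall and stood far above Lrrc32 in level. It reached 403 ± 9.38 CPM in MSR1 KO and 369 ± 23.2 CPM in MSR1 WT (SD, n = 3 each), and the groups did not overlap. Its rise of 0.13 on the log2 scale was not called by edgeR (adjusted p = 0.365). The members of this class with the highest CPM were Itgb1 (-0.10), Mmp9 (-0.33) and Itgb5 (0.06), and none of these passed (adjusted p = 0.389, 0.181 and 0.817 from edgeR). Itgb3, a chain of an integrin that can activate latent TGF-beta, had a log2 fold change of 0.47 with overlapping groups (adjusted p = 0.200 from edgeR). Itgb5 turned to -0.06 without MSR1 KO replicate 3.

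None of 11 co-receptors and receptor-associated genes and none of 15 Smads and Smad partners passed by edgeR's adjusted p or as a DEG. At an unadjusted p under 0.05 (edgeR), 1 of the 11 co-receptor genes was higher and 5 lower, and 2 of the 15 Smad genes were higher and 1 lower, beside 8.65% of all tested genes higher and 10.2% lower, while DESeq2 called Eng and no Smad gene. Eng, the co-receptor endoglin, had a log2 fold change of 0.47 with all MSR1 KO libraries above all MSR1 WT libraries (adjusted p = 0.119 from edgeR, 0.0261 from DESeq2). Pmepa1, a target of TGF-beta that dampens it, was at -0.54 (adjusted p = 0.163 from edgeR), Bambi, a decoy receptor, at -0.41 (adjusted p = 0.194) and Cd109 at -0.46 (adjusted p = 0.153), each lower in all 3 MSR1 KO libraries than in any MSR1 WT library. Zfyve9 (-0.40), Strap (-0.08) and Usp15 (0.03) overlapped (adjusted p = 0.327, 0.659 and 0.876 from edgeR). Of the inhibitory Smads, Smad6 was at -0.57 (adjusted p = 0.133 from edgeR) and Smad7, a feedback gene of the pathway, at -0.17 (adjusted p = 0.619). Smad2, Smad3 and Smad4, which carry the signal, were at -0.06, 0.15 and 0.04 with overlapping groups (adjusted p = 0.817, 0.393 and 0.841 from edgeR); these 3 lie outside the rule for naming genes and are given for their role. The corepressors Skil (0.47), Tgif2 (0.40), Tgif1 (0.26) and Ski (-0.04) had adjusted p-values of 0.188, 0.356, 0.193 and 0.971 from edgeR, and the coactivators Ep300 (0.12) and Crebbp (0.12) of 0.487 and 0.473.

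In the activin arm, which uses its own ligands and receptors but the same Smads, 1 of 11 tested genes fell by edgeR's adjusted p and 4 were lower DEGs. Over all tested genes, 2.66% were lower by adjusted p and 5.05% were lower DEGs. DESeq2 called 4 of the 11 lower, Inhba, Gdf11, Fst and Fstl1, beside 5.18% of all tested genes. Fst, or follistatin, which binds and blocks activins, had 95, 91 and 92 counts in MSR1 KO and 387, 341 and 366 in MSR1 WT libraries, a fall of 3.68-fold (95% interval 2.72 to 4.99) and a log2 fold change of -1.88 (SE 0.191, adjusted p = 0.00446 from edgeR). The other DEGs were Gdf11 (-0.88), Fstl1 (-0.71) and Fstl3 (-0.69), with adjusted p-values of 0.0838, 0.0563 and 0.144 from edgeR. Inhba, which encodes the subunit of activin A, was at -0.37 (adjusted p = 0.0807 from edgeR), and the activin receptor Acvr1b at -0.03 (adjusted p = 0.906).

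Of the targets of TGF-beta in mesenchymal cells, 6 of 24 tested genes fell and 1 rose by edgeR's adjusted p. Together these were 29.2%, beside 4.91% of all tested genes (2.66% lower and 2.25% higher). Lox, which cross-links collagen, fell from 299 ± 35.8 to 153 ± 19.1 CPM (SD, n = 3 each), with a log2 fold change of -0.97 (SE 0.117, adjusted p = 0.00918 from edgeR). The contractile genes Acta2 (-0.68) and Tagln (-0.64) fell with adjusted p-values of 0.0238 and 0.0191 from edgeR. Ctgf (-0.52), Cyr61 (-0.60) and Tpm1 (-0.42) fell too, and Timp3, an inhibitor of matrix proteases, rose by 0.59; these 4 were named after their values were seen. Col3a1 (-0.65), Nox4 (0.94), Fn1 (-0.37) and Col1a2 (-0.39) had adjusted p-values between 0.0573 and 0.111 (edgeR), the first a lower and the second a higher DEG.

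Of 17 target genes known from many cell types, 1 (5.88%) passed in edgeR, beside 4.91% of all tested genes. It was Snai2, a transcription factor of mesenchymal cells, with a log2 fold change of -0.94 (SE 0.172, adjusted p = 0.0267 from edgeR). DESeq2 called Myc, Vegfa and Tsc22d1 as well (adjusted p = 0.0184, 0.0108 and 0.00703 from DESeq2). In edgeR, Bhlhe40 (-0.52), Snai1 (-0.50), Tsc22d1 (-0.49) and Myc (-0.46) had adjusted p-values of 0.143, 0.328, 0.0581 and 0.0676. Zeb2 (-0.12), Cdkn1a (0.09) and Vegfa (0.37), with the highest CPM in the class, did not pass (adjusted p = 0.401, 0.658 and 0.0635 from edgeR). Of 13 genes that depend on TGF-beta in microglia, the macrophages of the brain, Fcrls fell from 422 ± 26.1 to 277 ± 33.1 CPM (SD, n = 3 each; log2 fold change -0.61, adjusted p = 0.0199 from edgeR) and Olfml3 by 0.54 on the log2 scale (adjusted p = 0.0310 from edgeR). Tmem119, at -0.70, was a lower DEG with an adjusted p = 0.0568 from edgeR. C1qa, a complement gene, was at 0.38 with every MSR1 KO library above every MSR1 WT library (adjusted p = 0.0698 from edgeR). Gpr34 (-0.49) and Gas6 (-0.45) had adjusted p-values of 0.155 and 0.145 from edgeR. DESeq2 also called Tmem119, Gas6, C1qa and, outside the rule for naming genes, Pros1. Cx3cr1, at 1.10, varied widely within both genotypes (3481, 1261 and 4863 counts against 669, 3127 and 1089).

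**Figure D4:**
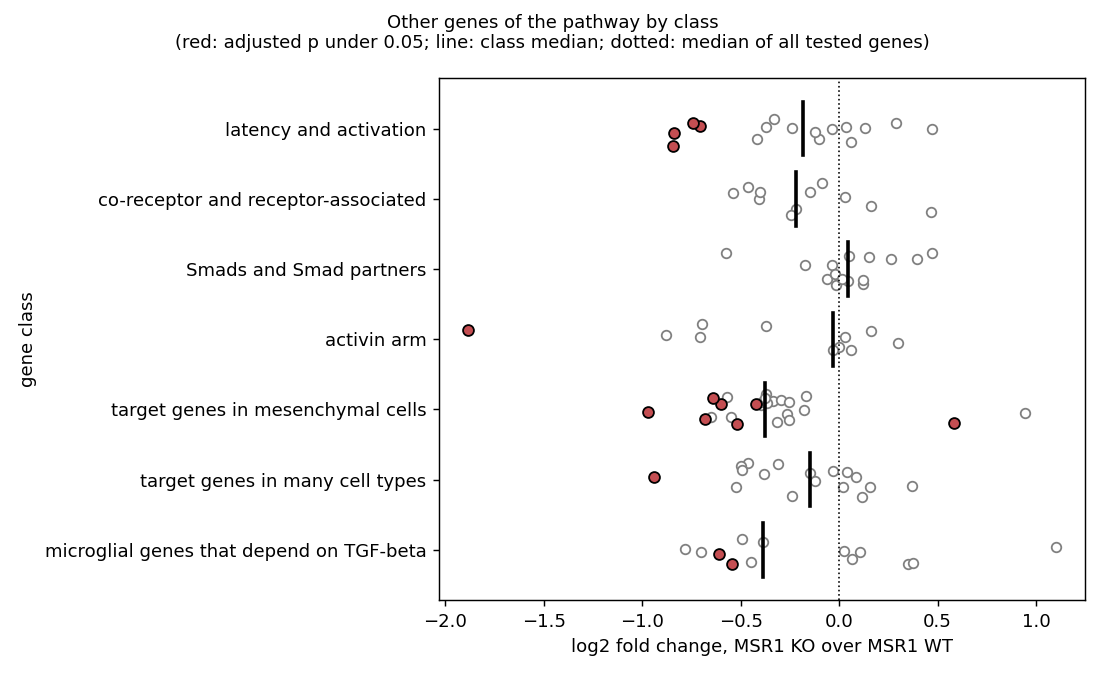
Log2 fold change, MSR1 KO over MSR1 WT, of the 107 tested genes of the pathway in 7 classes; each point is a gene, red where edgeR's adjusted p was under 0.05, the black line is the median of the class and the dotted line the median of all tested genes. The red points are 14 lower genes and Timp3, and Fst at -1.88 lies farthest to the left.

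Among the lists of markers of other cells, only the stromal list held genes that fell by edgeR's adjusted p. Of 21 stromal cell markers, 20 were tested, and Bglap had 0 counts in every library. Like the other lists, the markers were chosen with earlier results of these data known. As DEGs, 7 were lower and 1 higher, beside 5.05% of all tested genes lower and 3.59% higher. At an adjusted p under 0.05 (edgeR), 5 fell and 0 rose, beside 2.66% of all tested genes lower and 2.25% higher. The 5, named after their values were seen, were Pdgfra (-1.19), Cxcl12 (-1.11), Pdgfrb (-0.87), Cdh11 (-0.75) and Prrx1 (-0.66). Pdgfra had 226, 334 and 312 counts in MSR1 KO against 751, 650 and 693 in MSR1 WT libraries. The summed level of the list was 1374, 1807 and 1382 CPM in MSR1 KO and 2244, 1765 and 2029.7 CPM in MSR1 WT libraries, with replicate 2 of each genotype nearest to the other, as for Tgfb2. Col1a1, Col1a2, Col3a1, Eng, Fap and Postn stand in both this list and the pathway classes. Not every marker was lower. Thy1, also named after its value was seen, was a higher DEG at 1.31 (adjusted p = 0.0907 from edgeR), and Col1a1, among the 3 markers with the highest CPM, overlapped between the genotypes at -0.26 (adjusted p = 0.373 from edgeR). The part that stromal transcripts had in the lower Tgfb2, Tgfb3, Tgfbr3 and Ltbp1 was not tested, and in these bulk libraries fewer cells of a type and less RNA per cell cannot be told apart.

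The summed macrophage markers reached 25372 to 26603 CPM in MSR1 KO and 25731 to 28635 CPM in MSR1 WT libraries, and these ranges overlapped. Of the 14, Fcgr1, Aif1 and Ptprc rose and Mrc1 fell by edgeR's adjusted p, together 28.6% beside 4.91% of all tested genes. All 4 were named after their values were seen. Lyz2 (-0.15), Csf1r (0.04) and Adgre1 (0.07), with the highest CPM, did not pass. None of 10 neutrophil, 7 tested megakaryocyte and platelet, and 3 tested lymphocyte markers passed by edgeR's adjusted p. At an unadjusted p under 0.05 (edgeR), 1 neutrophil marker was higher and 2 platelet markers were lower, and DESeq2 called Vwf of the 3 lists. Over all tested genes, 8.65% were higher and 10.2% lower at that unadjusted p. The log2 fold changes of the 10 neutrophil markers ran from 0.13 to 1.30. Of 8 endothelial markers 1 (12.5%), Pecam1, rose by 0.72 on the log2 scale, beside 2.25% of all tested genes higher by adjusted p. The log2 fold changes of the 8 ran from 0.31 to 0.79. Their summed level was 118.2 to 144.6 CPM in MSR1 KO and 73.1 to 114.5 CPM in MSR1 WT libraries, and these ranges did not overlap. The platelet list bears on TGF-beta because platelets store Tgfb1, and its summed level was 444 to 824 CPM in MSR1 KO and 445 to 648 CPM in MSR1 WT libraries, while 2 of its markers, Ppbp and Vwf, were lower DEGs.

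**Figure D5:**
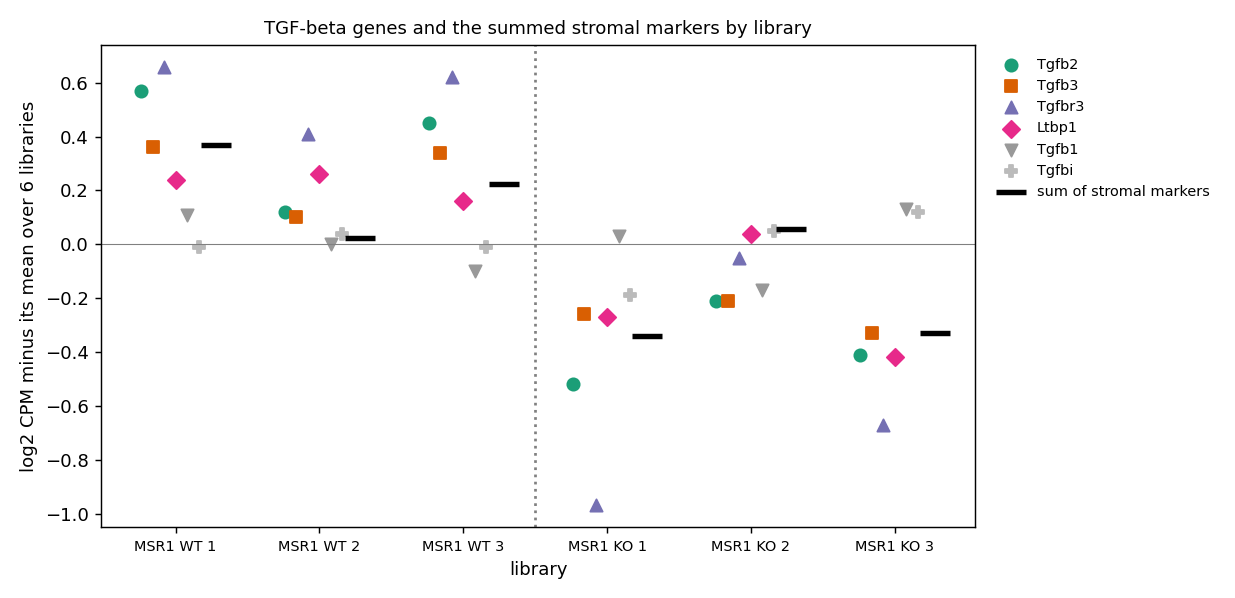
Log2 CPM of 6 TGF-beta genes in each library minus the mean of the gene over the 6 libraries (coloured points), with the summed CPM of the stromal markers centred the same way (black bars). Tgfb2, Tgfb3, Tgfbr3 and Ltbp1 lie lower in the MSR1 KO libraries than in the MSR1 WT libraries, and the stromal sum does too except in replicate 2 (1807 CPM in MSR1 KO, 1765 CPM in MSR1 WT).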

How the data were processed

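RNA of macrophages kept in a transwell with BMSCs was sequenced in 3 MSR1 KO and 3 MSR1 WT libraries. Per the paper the reads were aligned with TopHat, whereas the submitters' processing notes list fastp 0.17.1, HISAT2 2.1.0, DESeq2 1.18.1 and R 3.4.3. The program that counted reads, whether it used strand, and the genome build are not given in the sources used here. The authors deposited raw counts per gene, which all tests here used. Further columns of the deposited table give a signal per library, that is counts over a size factor, and from the authors' own comparison log2 values and p-values. No result here uses them.

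Positions match GRCm38, since 49909 of 52550 identifiers had the same span in GENCODE M21. Of the symbols, 27 had been turned into dates, and 26 of these were restored from the identifiers. Counts were filtered with filterByExpr, scaled by TMM and fitted in R 4.3.3 with the quasi-likelihood functions of edgeR 4.0.16 (glmQLFit, glmQLFTest), with MSR1 KO against MSR1 WT as the only term. Benjamini-Hochberg adjustment ran over 16402 genes, and an adjusted p under 0.05 was a call. A standard error is the log2 fold change divided by the root of its F statistic. RPKM used the merged exons of GENCODE M21, and log2 CPM a prior count of 2. With 3 libraries against 3, an exact two-sided permutation test cannot give a p below 0.1, so none is printed. Depth (36143518 to 47417448 counts) limits genes with few counts, and a count of 0 allows up to 3. Promoter windows were RefSeq's on GRCm38.p6.

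The 9 genes and the lists of pathway genes and markers were chosen with earlier results of these data known. The text names the 9 genes and Msr1, and draws other names from the 5 genes of each class with the largest change at a mean of at least 1 CPM, the 3 of each class or marker list with the most CPM, markers at 0 throughout, and for each called gene the 3 nearest in profile. Genes outside this rule are marked. The fit was tested on simulated counts. Alternatives were DESeq2 1.42.0, its size factors, library size alone, other filters, a block on replicate number, omission of each library, and transcript length for RPKM.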

Additional observations from a re-analysis of the deposited data

How the results depend on the processing

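The main limits are 3 libraries per genotype and calls close to the threshold. Leaving out each library in turn called 0 to 3 of the 9 TGF-beta genes lower by edgeR's adjusted p (3 with all libraries), and 2 to 15 lower and 0 to 1 higher other pathway genes (14 and 1 with all libraries). The fit with the replicate number as a block gave 0 of the 9 genes, and 5 lower and 0 higher pathway genes. The numbers showed no evident pairing of the libraries (correlations of same-numbered deviations of -0.0261, 0.0187 and -0.0048, and not every library was closest to its own number). Lower calls over all genes went from 436 to 78 with the replicate block, and why calls were lost was not tested. DESeq2 gave 26 lower and 5 higher pathway genes by adjusted p. Library size alone left 1 higher pathway DEG in place of 2 and moved the median of all genes to -0.034. Tgfb2 was called in 7, Tgfb3 in 6, Tgfbr3 in 5 and Ltbp1 in 2 of 12 alternatives, always lower, with Tgfbr3 lost also without the filter on low counts (adjusted p = 0.0555 from edgeR).

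Signs turned only for genes near 0 that no setting called. The log2 fold change of Tgfb1 became 0.0046 with DESeq2 and with its size factors and 0.0025 with at least 10 counts in every library, and Usp15 moved from 0.03 to -0.0035 with library size alone. Over the omissions of 1 library, Tgfb1 ranged from -0.0624 to 0.0780, Tgfbi from -0.0653 to 0.0847, Itgb5 from -0.0597 to 0.1335, Usp15 from -0.0008 to 0.0609, Acvr1b from -0.0927 to 0.0293 and Ski from -0.3255 to 0.2797. Apart from omissions and construction, the cause was not tested. Of the single-gene values, 640 kept their direction and side of the threshold, 54 lost a call, 27 gained one, 15 turned and 5 RPKM values moved.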
